A study of Homo sapiens with 4 samples.

Results

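The ERBB receptors and their ligands were followed in MKN28 cells, a human gastric adenocarcinoma cell line. The family was taken as 10 genes chosen by symbol, 4 receptors and 6 ligands, out of 23362 genes in the deposited expression table. All 10 were listed once. Of these, 8 had an FPKM (fragments per kilobase of transcript, scaled to the mapped fragments of the library) of at least 1 in some library, and ERBB4 and EREG stayed below 1 in all of them.

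The study asked whether KIAA1324, a transmembrane protein, needs its N-linked glycans to act in these cells. Poly(A) RNA was sequenced as 1 library from each of 4 lines, all carrying a tet-on retroviral construct and selected with drugs. The constructs encoded luciferase (Luc, the control), KIAA1324 WT, 3NQ (the asparagines of 3 N-glycosylation sites replaced by glutamine) or ΔTM (no transmembrane domain). Whether or how long doxycycline was given before RNA was taken is not given in the sources used here. With 1 library a group no difference had a replicate check, so no p-value or SD is given, and every comparison below describes these libraries only. For KIAA1324 itself the FPKM was 2.86 (Luc), 11185 (WT) and 8197 (3NQ). It was listed at 0 in the fourth library, which is therefore called the ΔTM-labelled library. Of the epithelial markers, all 5 (EPCAM, CDH1, KRT8, KRT18 and KRT19) had an FPKM of 233 or more in every library, and KRT8 (−0.91) and KRT18 (−0.80) were lower in WT than in Luc as log2 ratios of FPKM + 1. Of the markers of other cells, PTPRC, COL1A2 and VWF stayed below 1, while CD68 lay at 4.44 to 5.84 and COL1A1 at 12.1 to 15.3. Of 7 gastric markers, MUC1 reached 1, whereas TFF1, TFF2, MUC5AC, MUC6, CLDN18 and GKN1 were at or near 0 throughout.

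EGFR, ERBB2, ERBB3 and ERBB4 are receptor tyrosine kinases that signal as pairs. EGF, TGFA, AREG, HBEGF, BTC and EREG are made as membrane-bound precursors, cut free by ADAM proteases, and bind EGFR, with HBEGF, BTC and EREG also binding ERBB4. ERBB2 has no known ligand of its own and ERBB3 has little kinase activity, so each works through a partner. In stomach epithelium the family drives growth and repair, and EGFR and ERBB2 are drug targets in gastric cancer.

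EGFR, a receptor of all these ligands (chromosome 7 of GRCh37, 55086714 to 55324313), had an FPKM of 62.9 (Luc), 65.2 (WT), 57.0 (3NQ) and 57.8 (ΔTM-labelled). It was the steadiest of the 8 expressed genes, with a span of 0.19 between its lowest and highest library on the log2(FPKM + 1) scale. ERBB2, the partner receptor (chromosome 17, 37844167 to 37886679), had 59.5, 57.2, 50.9 and 43.4 in the same order, lowest in the ΔTM-labelled library. ERBB3, the receptor for neuregulins (chromosome 12, 56473641 to 56497289), had 74.8, 53.0, 48.8 and 57.9, so that Luc was above the other libraries. ERBB4, the other neuregulin receptor (chromosome 2, 212240446 to 213403565), was listed at 0 in 3 libraries and at 0.0217 in WT.

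FPKM is scaled by length, so that levels can be set side by side between genes. Within a library EGFR, ERBB2 and ERBB3 were near each other. EGFR was at the 83.0 to 85.4 percentile of all expressed genes. EGFR to ERBB3 ranged from 0.841 to 1.23 as a ratio of FPKM, and ERBB3 to ERBB2 from 0.927 to 1.33, and neither reached 1.5-fold in any library. EGFR made up 31.9% of the summed receptor FPKM in Luc, 37.2% (WT), 36.3% (3NQ) and 36.3% (ΔTM-labelled). These cells thus held messages of 3 receptors in like amounts, with ERBB4 close to 0.

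**Figure D1:**
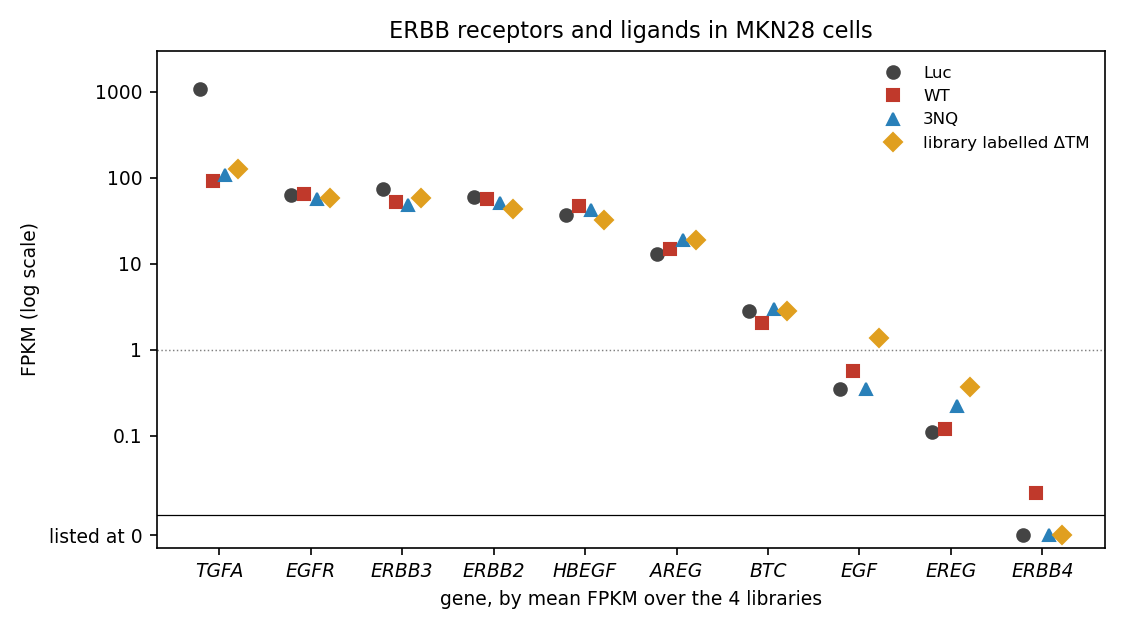
FPKM of the 10 genes on a log axis, 1 point per library, ordered by the mean over the 4 libraries, with points below the line listed at 0 and the dotted line at an FPKM of 1. TGFA in Luc, at 1071, stands apart from the other 3 libraries at 91.9 to 126, whereas EGFR, ERBB3 and ERBB2 lie between 43.4 and 74.8 in every library.

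TGFA, an EGFR ligand (ENSG00000163235, chromosome 2, 70674412 to 70781325), had an FPKM of 1071 (Luc), 91.9 (WT), 108 (3NQ) and 126 (ΔTM-labelled). The Luc value was 8.51 times the next highest. The other 3 libraries lay close together, with 1.37-fold between their lowest and highest. TGFA was nevertheless the most abundant of the 6 ligands in each library, ranked 46 from the top of 11769 genes in Luc and 764 to 1142 in the others.

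HBEGF, which also serves as the diphtheria toxin receptor (chromosome 5, 139712428 to 139726216), had 36.7 (Luc), 46.4 (WT), 41.7 (3NQ) and 32.0 (ΔTM-labelled), highest in WT. AREG, a lower affinity EGFR ligand, had 13.1, 15.1, 19.1 and 18.9, higher in the 3NQ and ΔTM-labelled libraries than in Luc and WT. BTC (chromosome 4, 75669969 to 75719896) had 2.80, 2.06, 2.95 and 2.87, lowest in WT. EGF, the founding ligand (chromosome 4, 110834040 to 110933422), had 0.350, 0.570, 0.355 and 1.38, and passed 1 in the ΔTM-labelled library only. EREG, which is near AREG on chromosome 4 (75230860 to 75254468), ran from 0.112 in Luc to 0.374 in the ΔTM-labelled library.

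The ligands were thus spread over a wide range, in the order TGFA, HBEGF, AREG, BTC, EGF and EREG in every library, each at least 1.5-fold above the next within that library. Between ligands and receptors, TGFA was above EGFR by 1.41-fold in WT, 1.90-fold in 3NQ, 2.18-fold in the ΔTM-labelled library and 17.04-fold in Luc. ERBB2 was above HBEGF by 1.22- to 1.62-fold, and by more than 1.5-fold in Luc only. TGFA held 95.3% of the summed ligand FPKM in Luc, against 58.9% (WT), 62.7% (3NQ) and 69.4% (ΔTM-labelled). Without TGFA, the other 5 ligands summed to 53.0 (Luc), 64.2 (WT), 64.3 (3NQ) and 55.5 (ΔTM-labelled), and HBEGF held 69.2%, 72.3%, 64.8% and 57.6% of that sum.

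AREG lies in a cluster of 5 ligand entries on chromosome 4 that spans 546 kb and also holds EPGN, EREG, AREGB and BTC. Their levels were far apart, with AREG at 13.1 to 19.1, BTC at 2.06 to 2.95, and EPGN and EREG below 1 in every library. AREGB is a near-identical copy of AREG in the GRCh37 assembly, and was listed at 0 in each library. Aligned base by base, AREG (chromosome 4, 75310851 to 75320726) and AREGB (75480629 to 75490486) were identical at 99.6% of 9880 aligned columns. They had 10 mismatched bases and 29 bases in 5 gaps, and 1 of the mismatches fell in the AREG coding sequence. Reads from these genes can hardly be told apart, so that the AREG value may pool both entries, and it is given as uncertain in that sense. The windows shown are the 100 bases before the deposited start of AREGB and before the matching base of AREG in the alignment. For AREG that base lies 2 bases after the start in the deposited table, at its GENCODE start. The windows are chr4:75310753-75310852 for AREG and chr4:75480529-75480628 for AREGB, plus strand of GRCh37. A cAMP response element (TGACGTCA) and a TATA box (TATAAA) are in capitals. The windows show how alike the copies are, with 0 differences.
AREG: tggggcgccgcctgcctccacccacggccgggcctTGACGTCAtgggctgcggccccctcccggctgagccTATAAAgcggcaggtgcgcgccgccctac
AREGB: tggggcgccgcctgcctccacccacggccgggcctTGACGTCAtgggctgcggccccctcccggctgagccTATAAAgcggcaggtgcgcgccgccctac

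Both motifs were searched on either strand, without overlap between them, and a match is a description of letters, not of a bound factor. In the same 100-base window of 35116 RefSeq gene starts (GRCh38.p14), TGACGTCA occurred in 1.17%, TATAAA in 4.99% and both in 0.0456%. Of the 10 family genes, the first was found at AREG, and the second at AREG, EGFR and EREG. The single coding difference lies at position 21 of the 41-base windows chr4:75311072-75311112 (AREG) and chr4:75480848-75480888 (AREGB), counted from 1 at the 5′ end, as G21A from AREG to AREGB, in capitals.
AREG: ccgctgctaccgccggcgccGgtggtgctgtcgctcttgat
AREGB: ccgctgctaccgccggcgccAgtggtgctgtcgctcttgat

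The libraries were next compared as log2 ratios of FPKM + 1 over the 11769 genes that reached an FPKM of 1 in some library, and calls were made at 1.5-fold in either direction (0.58 on the log2 scale). The added 1 understates the change of low genes. In WT against Luc, 1 of the 8 expressed family genes, TGFA, was lower and 0 were higher, where 3.34% of all genes were called lower and 3.36% higher. The TGFA ratio was −3.53. ERBB3 had −0.49, BTC −0.31, HBEGF 0.33, EGF 0.22 and AREG 0.19, none of them called, and EGFR (0.05) and ERBB2 (−0.05) were nearest to Luc. The median of the 8 ratios was −0.0014, beside −0.0049 over all genes.

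In 3NQ against Luc, TGFA (−3.29) and ERBB3 (−0.61) were lower and 0 of the 8 genes higher, where 2.57% of all genes were called lower and 1.77% higher. ERBB3 was just past the threshold, and lost the call with a pseudocount of 5 (−0.57) and after rescaling to the median of ratios (−0.57). AREG had 0.51, HBEGF 0.18, BTC 0.06 and EGF 0.01, while EGFR had −0.14 and ERBB2 −0.22. The median was −0.067 over the 8 genes and −0.038 over all genes.

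In the ΔTM-labelled library against Luc, TGFA (−3.08) was lower and EGF (0.82) higher, where 1.57% of all genes were called lower and 1.54% higher. EGF reached an FPKM of 1 in the ΔTM-labelled library alone (0.350 in Luc, 1.38 there), so that it was among the genes compared only through its high value in that library, and its call is given as a description that supports nothing. It was lost with a 2-fold threshold, with a pseudocount of 5 (0.25) and with a filter at an FPKM of 5. AREG (0.50), ERBB2 (−0.45), ERBB3 (−0.36), HBEGF (−0.19), EGFR (−0.12) and BTC (0.03) were not called. The median was −0.16, beside −0.060 over all genes.

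The 3 comparisons share the Luc library, so that the TGFA call in each of them rests on the same value of 1071. When the mean of the 3NQ and ΔTM-labelled libraries served as the control in place of Luc, TGFA in WT had a ratio of −0.35, and 0 of the 8 genes were called.

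**Figure D2:**
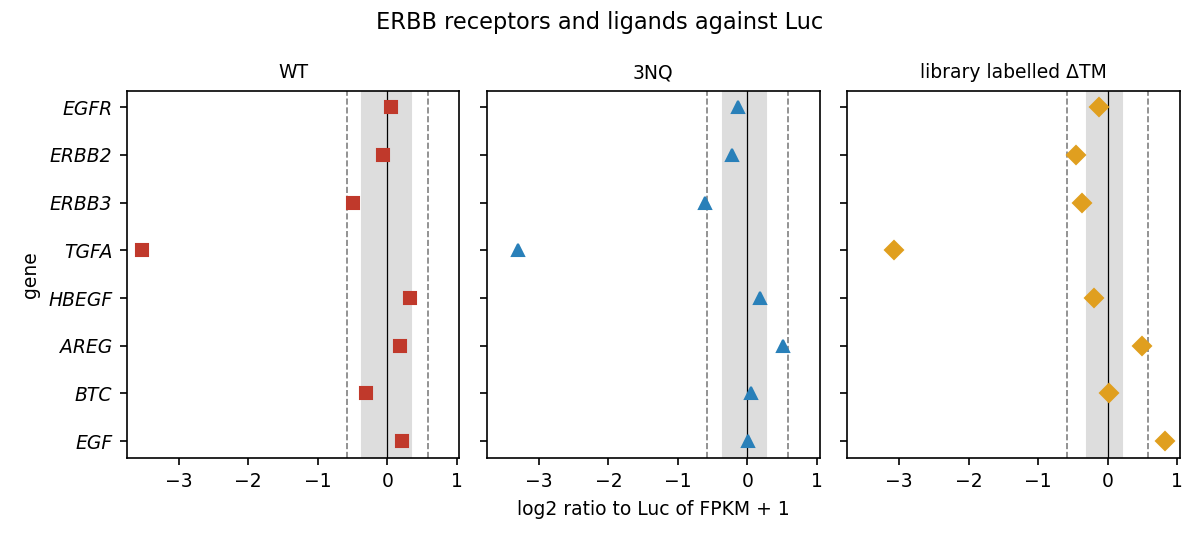
Log2 ratio to Luc of FPKM + 1 for the 8 family genes that reached an FPKM of 1 in some library, 1 panel per library, with dashed lines at 1.5-fold and a grey band from the 10th to the 90th percentile of all 11769 genes. TGFA lies between −3.53 and −3.08 in the 3 panels, whereas the other genes lie between −0.61 and 0.82.

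The other 3 comparisons do not use Luc. WT against 3NQ sets KIAA1324 with its N-glycosylation sites beside KIAA1324 without them, whereas KIAA1324 was listed at 0 in the ΔTM-labelled library. In WT against 3NQ, 0 of the 8 genes were called, where 2.89% of all genes were higher and 1.58% lower. The ratios ran from −0.37 for BTC and −0.32 for AREG to 0.21 for EGF, with 0.19 for EGFR, 0.17 for ERBB2, 0.15 for HBEGF, 0.12 for ERBB3 and −0.23 for TGFA. In WT against the ΔTM-labelled library, EGF (−0.60) was lower and the other 7 genes were not called, where 4.25% of all genes were higher and 2.91% lower. HBEGF (0.52) and ERBB2 (0.39) were on the side of WT, and TGFA (−0.45), BTC (−0.34) and AREG (−0.31) on the other. In 3NQ against the ΔTM-labelled library, EGF (−0.81) was lower and the other 7 were not called, where 1.46% of all genes were higher and 1.88% lower. Both EGF calls rest on the same value of 1.38, through which EGF passed the filter, and both were lost under the settings that ended its call against Luc.

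The high TGFA value in Luc was set beside the same kind of value in other genes. In Luc, 9 of 11769 genes, TGFA among them, had an FPKM + 1 at least 5 times that of each other library, and TGFA was 9th of these in size with 8.45-fold. Such genes numbered 8 (WT), 7 (3NQ) and 10 (ΔTM-labelled). All 4 libraries thus held a few genes that stood far above the rest in that library alone. GENCODE on GRCh37 lists 9 TGFA transcripts of 147 to 4117 bases, and the genes TGFA-IT1 and AC017084.1 overlap TGFA on the same strand. The deposited FPKM gives 1 value for the whole gene, so that which transcript carried the Luc value was not tested.

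**Figure D3:**
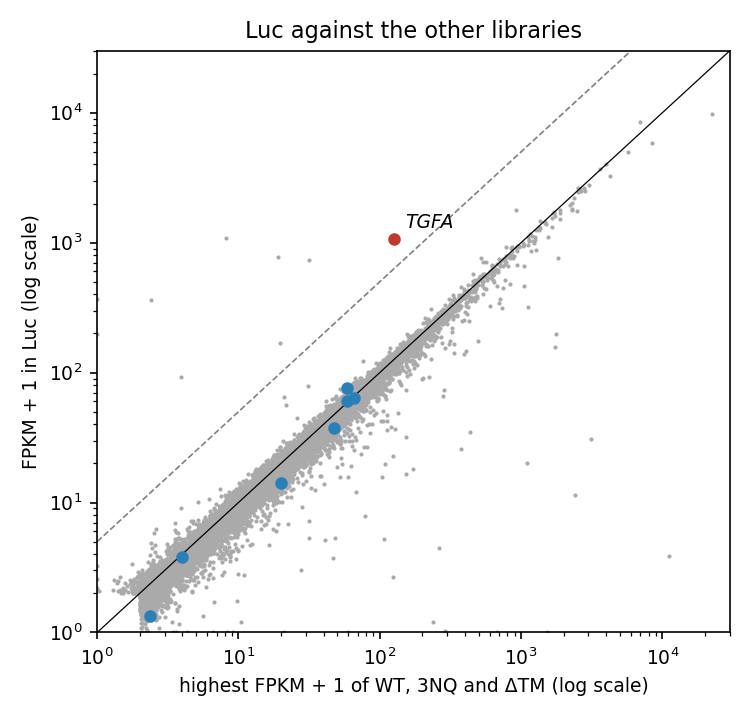
FPKM + 1 in Luc against the highest FPKM + 1 among the other 3 libraries, both on log axes, for the 11769 genes (grey), with TGFA in red and the other 7 expressed family genes in blue. The solid line marks equal values and the dashed line 5-fold, and TGFA is the only family gene above the dashed line, where 9 genes lie.

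For genes whose span over the 4 libraries reached 1.5-fold, the nearest patterns among 9403 genes reaching an FPKM of 5 in some library were sought, by Euclidean distance of centred log2(FPKM + 1). ERBB3 was nearest to FUT8 (distance 0.033), with an FPKM of 27.6 (Luc), 19.3 (WT), 17.5 (3NQ) and 21.5 (ΔTM-labelled), and then to FAM104B (0.071). TGFA was nearest to HDAC11 (0.81), with 167, 18.5, 9.89 and 14.3, and then to PTPN12 (1.19), with 734, 29.2, 30.3 and 28.1. HDAC11 and PTPN12 were both among the 9 genes counted above as at least 5 times higher in Luc than in each other library. Their distances to TGFA were larger than those given for ERBB3, so that neither pattern was close. EGF was nearest to PRR4 (0.086) and RP11-613M10.8 (0.092), both highest in the ΔTM-labelled library. With 4 libraries such likeness is a description.

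The other genes of the pathway were followed through lists of their parts. Of the other ERBB ligands, NRG4 passed an FPKM of 1, and EPGN, NRG1, NRG2 and NRG3 did not. NRG4, an ERBB4 ligand named after its values were seen, had 1.26 (Luc), 1.01 (WT), 0.482 (3NQ) and 0.487 (ΔTM-labelled). Its ratio was −0.61 in 3NQ and −0.60 in the ΔTM-labelled library, both called, but both rest on low values, were lost with a pseudocount of 5, and the second also under the median of ratios. NRG4 was among the genes compared only through its values in Luc and WT. Its calls are thus given as a description that supports nothing.

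Of 10 genes of ligand release (proteases, their cofactors and the protease inhibitor TIMP3), ADAM12, RHBDL2 and TIMP3 stayed below 1 in every library. Of the 7 expressed, 0 were called in any of the 3 comparisons with Luc. ADAM17, the main protease for TGFA, AREG and HBEGF, had an FPKM of 67.9 (Luc), 68.8 (WT), 68.5 (3NQ) and 67.4 (ΔTM-labelled). ADAM10, which cuts EGF and BTC, had 172, 143, 144 and 145, highest in Luc. The median ratio of the list was −0.051 (WT), −0.23 (3NQ) and −0.011 (ΔTM-labelled).

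Of 12 receptor adaptors and effectors, GRB7 was lower in WT and PLCG1 in the ΔTM-labelled library, and 0 were called in 3NQ. GRB7, an adaptor encoded next to ERBB2, had 38.7 (Luc), 25.3 (WT), 27.5 (3NQ) and 28.0 (ΔTM-labelled). Its ratio in WT was −0.59, at the threshold, and the call was lost with a pseudocount of 5 and under 2 of the 3 rescalings. PLCG1, a phospholipase that binds activated EGFR, had 11.1, 7.47, 8.16 and 5.76, with a ratio of −0.84 in the ΔTM-labelled library that was no longer called when the pseudocount was 5. The medians were −0.091, −0.055 and −0.093.

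Of 12 expressed negative regulators, CBLB was higher in WT and 0 were called in 3NQ or the ΔTM-labelled library. CBLB, a ubiquitin ligase that marks activated receptors for degradation, had 3.31 (Luc), 8.95 (WT), 3.64 (3NQ) and 3.56 (ΔTM-labelled), so that WT alone was high, with a ratio of 1.21. Its relatives CBL (19.7, 18.9, 17.7 and 16.4) and CBLC (23.9, 21.6, 18.6 and 25.3) were not called. ERRFI1, an inhibitor that binds the EGFR kinase domain, had 416, 326, 336 and 393, with ratios of −0.35, −0.31 and −0.08. The medians were −0.090, −0.11 and −0.044.

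In the RAS-ERK cascade, 0 of 11 genes were called in any comparison with Luc, and the median ratio was 0.041 (WT), −0.019 (3NQ) and −0.22 (ΔTM-labelled). In the PI3K-AKT cascade, 1 of 12 genes, PIK3CA, was higher in the ΔTM-labelled library and 0 were called in WT or 3NQ. PIK3CA, the catalytic subunit of PI3K, had 30.2, 36.9, 30.8 and 48.0, with a ratio of 0.65. The medians of that list were 0.031, −0.24 and −0.15, and the second was −0.10 with a filter at an FPKM of 5. All these medians stand beside −0.0049, −0.038 and −0.060 over all genes.

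Of 16 expressed genes that ERK signaling induces, FOSL1 was higher in WT and 3NQ, and 0 were called in the ΔTM-labelled library. FOSL1, a subunit of AP-1, had 79.5 (Luc), 140 (WT), 126 (3NQ) and 93.6 (ΔTM-labelled), with ratios of 0.81, 0.66 and 0.23. The feedback inhibitors DUSP6 (2.49, 3.40, 1.91 and 2.09) and SPRY4 (9.89, 11.2, 9.27 and 8.93) were highest in WT and not called. The other expressed feedback inhibitors of the list were not called either, and were not highest in WT. They were DUSP4 (10.1, 10.6, 12.4 and 10.8), SPRY1 (12.6, 10.8, 8.83 and 10.5) and SPRY2 (6.30, 6.03, 6.03 and 6.65). SPRED1 (12.615, 12.565, 10.9 and 10.4) and SPRED2 (70.5, 66.3, 69.2 and 66.4) belong with them. The median of the list was 0.026, −0.0014 and −0.041. Over the 71 expressed genes of these 7 lists, 2 were higher and 1 lower in WT (2.82% and 1.41%), 1 higher and 1 lower in 3NQ (1.41% each), and for the ΔTM-labelled library 1 higher beside 2 lower (1.41% and 2.82%). The lower gene in 3NQ was NRG4, which was also among the lower genes in the ΔTM-labelled library. Over all genes the shares higher and lower were 3.36% and 3.34% in WT, 1.77% and 2.57% in 3NQ, and 1.54% and 1.57% in the ΔTM-labelled library. Of the list genes called against Luc, only CBLB in WT reached 2-fold.

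**Figure D4:**
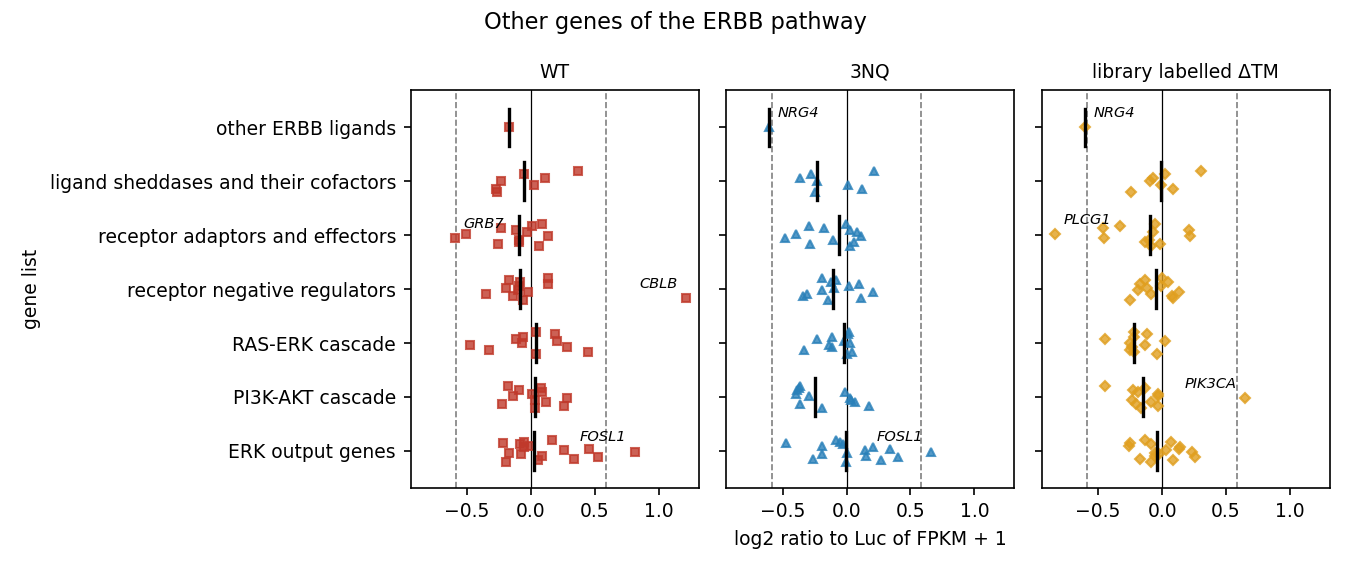
Log2 ratio to Luc of FPKM + 1 for the 71 expressed genes of 7 pathway lists, 1 point per gene and 1 panel per library, with black bars at list medians and dashed lines at 1.5-fold. Most genes lie between the dashed lines, and those outside are named, with CBLB in WT the furthest at 1.21.

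ERBB2 was also set beside its neighbours at 17q12, a region amplified in some gastric cancers. Of 6 neighbours, TCAP and PNMT stayed below 1, and STARD3 (29.6, 35.7, 33.8 and 32.6 in Luc, WT, 3NQ and the ΔTM-labelled library), MIEN1 (20.3, 16.1, 18.8 and 16.9), PGAP3 (7.28, 6.73, 7.14 and 6.94) and GRB7 were expressed. ERBB2 was above each of them in each library. PGAP3 and MIEN1 overlap ERBB2 on the opposite strand in GENCODE, and whether the counting used strand is not given in the sources used here, so that shared reads cannot be told apart.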

How the data were processed

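Poly(A) RNA from 4 MKN28 lines was sequenced as 1 library each. Reads were filtered on quality and aligned by the authors with TopHat (GRCh37). Cufflinks 2.1.1 gave gene FPKM, with a mask for non-coding genes and with its corrections for fragment bias and reads that map to several places. The deposited values are thus FPKM, already scaled for length and library size by the authors. They hold no counts, and the depth is unknown. Among genes with FPKM of 0.001 to 0.05 in both libraries of a pair, log2 ratios were sorted into narrow bins. The fullest bin lay at a ratio between 0.901 and 1.17 over the 6 pairs, and held 5.16% to 13.0% of these genes. The fullest 3 bins held 13.8% to 31.0%. Read counts were not derived from these values.

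Log2 ratios were computed with a pseudocount of 1 using Python 3.11.15, numpy 2.4.6 and pandas 2.3.3, over genes that reached an FPKM of 1 in some library. A fold rule of 1.5 replaced the authors' Cuffdiff p-values, which need more than FPKM. For a repeated symbol (166 entries), the entry with the higher mean was used. The fold calls alone were tried on simulated data, with planted changes well past the threshold in genes well above the filter. That says nothing of calls near 1.5-fold or at low FPKM. Tried in turn were pseudocounts of 0.1 and 5, a threshold of 2-fold, a filter at an FPKM of 5 or none, 3 rescalings and another control. The 2-fold threshold and the other control were applied to the family genes only, not to the lists. AREG and AREGB were aligned with minimap2 2.31 on the GRCh37 genome, with GENCODE annotation, and figures were drawn with matplotlib 3.10.9. The motifs were read from RefSeq promoters.

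The family and the lists were chosen with earlier results of these data known. Genes named were the family, KIAA1324, list genes called against Luc with an FPKM of at least 5, and the 2 nearest patterns. Other genes were named after their values were seen. PECAM1, a marker of other cells, was not listed under that symbol, and so could not be analysed here.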

Additional observations from a re-analysis of the deposited data

How the results depend on the processing

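TGFA was called lower against Luc in all 3 comparisons under every alternative that keeps Luc as the control, with ratios from −3.54 to −3.47 in WT, −3.31 to −3.25 in 3NQ and −3.09 to −3.02 in the ΔTM-labelled library. Where the 3NQ and ΔTM-labelled libraries, averaged, replaced Luc, 0 family genes were called in WT in place of 1. In 3NQ against Luc, 1 gene was called in place of 2 with a 2-fold threshold, a pseudocount of 5 or rescaling by the median of ratios, since ERBB3 was lost. In the ΔTM-labelled library against Luc, 1 was called in place of 2 with a 2-fold threshold, a pseudocount of 5 or an FPKM of at least 5, since EGF was lost. For the same reason 0 were called in place of 1 under these settings in both comparisons of WT or 3NQ with that library. In WT against 3NQ, 0 were called under every alternative. No called gene changed direction under the alternatives run. Some list medians near 0 changed sign. With the median of ratios these were the genes of ligand release (0.051), negative regulators (0.018) and ERK-induced genes (0.021) in the ΔTM-labelled library, and the RAS-ERK cascade (0.018) and ERK-induced genes (0.036) in 3NQ. The genes of ligand release in WT did so without a filter (0.019) or when rescaled without KIAA1324 (0.0020). In the ΔTM-labelled library they also did so when rescaled by the upper quartile (0.024) or without KIAA1324 (0.026). The median of the ERK-induced genes in 3NQ also changed sign under the upper quartile (0.014) and with a filter at an FPKM of 5 (0.0024). In WT it did so without a filter or with one at an FPKM of 5 (−0.0053 in both). The order of the family by mean FPKM was kept under the median of ratios. That rescaling applies the same factor to every gene of a library, so that the order within a library could not change. No paired analysis was possible because each group holds 1 library, and for that reason no replicate could be left out. The FPKM of EGF, EREG, ERBB4 and NRG4 lay near or below 1, and the depth behind them is unknown.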

Other observations

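The summed receptor level was highest in Luc. EGFR, ERBB2, ERBB3 and ERBB4 together had a summed FPKM of 197 (Luc), 176 (WT), 157 (3NQ) and 159 (ΔTM-labelled). ERBB3 alone went from 37.9% of that sum in Luc to 30.2% (WT), 31.1% (3NQ) and 36.4% (ΔTM-labelled).

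Genes that stood at least 5-fold above each other library were named after their values were seen. In Luc, beside TGFA, RAPGEF6 had an FPKM of 1081 against 5.99 to 7.18 in the others, EFTUD1 780 against 16.0 to 17.9, and FOXO1 359 against 1.28 to 1.41. In WT, UAP1 had 3126 against 30.0 to 51.0. In 3NQ, RCCD1 had 1095 against 12.4 to 19.0. In the ΔTM-labelled library, NIPAL2 had 2403 against 10.4 to 15.3. Genes at least 5-fold below each other library were fewer, 8 over the 4 libraries against 34 above. The cause of these values was not tested.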
